A study of Glycine max with 6 samples.

Results

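The genes of 2 glycerol-3-phosphate transporters, Glyma.09G223700 and Glyma.12G013200, and of an inositol monophosphatase, Glyma.07G266200, were followed in soybean nodules under low and high phosphate supply. They are 3 of the 39712 genes listed with a value above 0 in at least 1 library. They were chosen by their protein descriptions and by their difference between the treatments in these same libraries, so their treatment values are given as a description and without a test. Nodules of soybean (genotype YC03-3, inoculated with the rhizobium USDA110 and grown in hydroponic culture) came from LP plants, which received the low phosphate supply, or from HP plants, which received the high supply. The labels give the KH2PO4 concentrations as 25 (LP) and 500 (HP) mM, whereas the methods of the study give the same figures in μM. Each treatment had 3 libraries, and for each library 2 plants were pooled, whose nodules of more than 3 mm were taken on day 25. All libraries come from 1 plant genotype and 1 rhizobium strain, and whole nodules were used, so that fewer cells of a type and less RNA per cell cannot be told apart.

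Glycerol-3-phosphate is the backbone from which phospholipids and triacylglycerols are built, and it is set free again when membrane phospholipids are taken apart. Glycerol-3-phosphate transporters of plants belong to a family of membrane carriers that move organic phosphates, and in Arabidopsis some of the family respond to phosphate starvation. Inositol monophosphatase removes the phosphate group from inositol monophosphate, which yields free inositol and phosphate and ends both the new synthesis and the recycling of inositol. An Arabidopsis enzyme of this family also acts on a sugar phosphate of ascorbate synthesis.

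The fragments recovered over the listed genes numbered 17659419 to 18849232 in the LP libraries and 17870355 to 18623598 in the HP libraries. Levels are given in FPKM, fragment numbers divided by gene model length and by library total, which can be compared between genes because they are per length. The tissue label was checked with 4 leghemoglobin genes, the oxygen carriers of infected nodule cells, which lay at 12146 to 25240 FPKM in the LP libraries and at 11722 to 25713 FPKM in the HP libraries. In limma none of the 4 passed the test between treatments (3.34% of all genes tested passed as higher and 4.39% as lower). None had an unadjusted p under 0.05, and nothing is read from a count of 0 among 4 genes.

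Glyma.09G223700, on the minus strand of chromosome 9 from 44873159 to 44877116 (Wm82.a2.v1), is described as a putative glycerol-3-phosphate transporter 1-like gene. Its level was 172, 164 and 142 FPKM in the LP libraries, against 32.8, 34.8 and 29.0 FPKM in the HP libraries. The lowest LP library was 4.09-fold above the highest HP library. The treatments did not overlap (11.1% of all genes tested had every LP library above every HP library). The means were 159 ± 15.4 FPKM at LP and 32.2 ± 2.92 FPKM at HP (SD, n = 3 each). The log2 fold change of LP over HP was 2.30 (standard error 0.12), on the scale of log2(FPKM + 0.1). By mean level the gene ranked 319 of 39712 genes at LP and 2957 at HP.

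Glyma.12G013200, on the plus strand of chromosome 12 from 955725 to 959879, carries the same description and corresponds to LOC100799211 in RefSeq. Its level was 80.1, 85.2 and 70.3 FPKM at LP, against 15.2, 19.2 and 18.02 FPKM at HP. Again the treatments did not overlap, with the lowest LP library 3.67-fold above the highest HP library. The means were 78.6 ± 7.56 FPKM at LP and 17.5 ± 2.03 FPKM at HP (SD, n = 3 each), and the log2 fold change was 2.16 (standard error 0.12). Its rank by mean level was 837 at LP and 5926 at HP.

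Glyma.07G266200, on the plus strand of chromosome 7 from 43986532 to 43990202, matches an inositol monophosphatase 3 protein of Glycine soja, the wild relative of soybean. It was at 85.6, 79.5 and 73.8 FPKM in the LP libraries, against 1.15, 2.12 and 1.26 FPKM in the HP libraries. The lowest LP library was 34.8-fold above the highest HP library. The log2 fold change was 5.67 (standard error 0.21), which ranked 22 among the 31181 genes tested, and it was 5.02 with an added constant of 1 in place of 0.1. The gene was low at HP, where its mean ranked 26137 by level, whereas at LP it ranked 816.

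**Figure D1:**
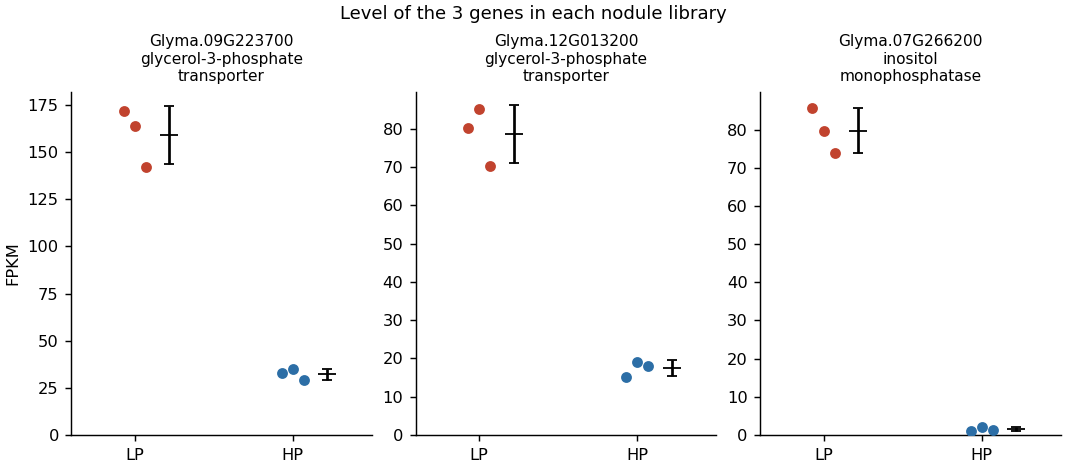
Level in FPKM (vertical axis, from 0, with its own range in each panel) of the 2 glycerol-3-phosphate transporter genes and the inositol monophosphatase gene in the 3 LP libraries (left, red) and the 3 HP libraries (right, blue). Each point is 1 library and the black marks give the mean ± SD. All LP points lie above all HP points in each panel, and Glyma.07G266200 lies at 1.15 to 2.12 FPKM in the HP libraries.

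Over all genes, a gene was called in limma with an adjusted p up to 0.05 and a fold of 2 or more. Genes called higher at LP were 3.34% and genes called lower were 4.39% of the 31181 tested, and in 11.1% of them every LP library was above every HP library. The 3 chosen genes lie past these limits by the way they were chosen, and nothing is read from that. The median log2 fold change over all genes tested was -0.18. Under median-of-ratios scaling, which moved that median by 0.18, the called genes numbered 1404 higher and 676 lower in place of 1041 and 1370. The log2 fold changes of the 3 genes were then 2.49 (Glyma.09G223700), 2.35 (Glyma.12G013200) and 5.85 (Glyma.07G266200). The study, which used DESeq2, reported more genes up than down at low phosphate. That is the opposite balance to the 1041 and 1370 here, but the same direction as the 1404 and 676 under median-of-ratios scaling.

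**Figure D2:**
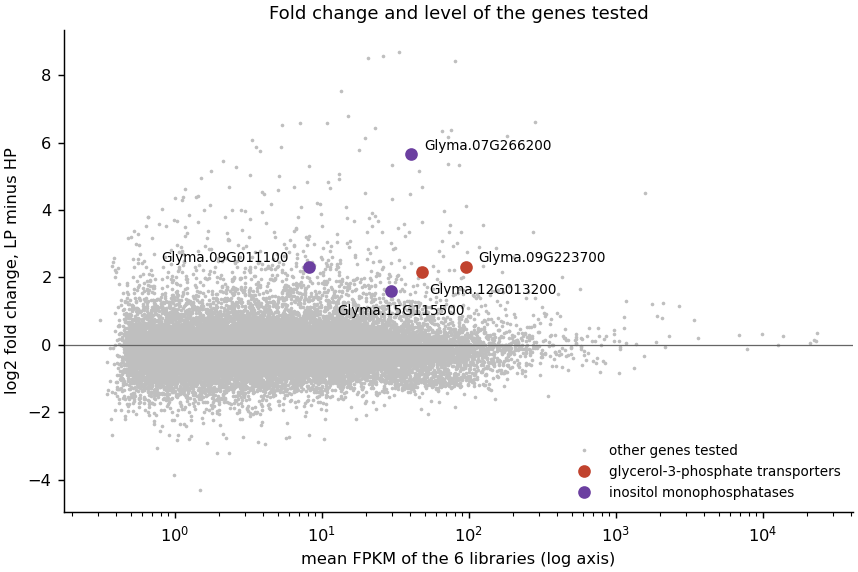
Log2 fold change of LP over HP (vertical axis) against the mean level of the 6 libraries (horizontal axis, FPKM, log scale) for the 31181 genes tested, 1 grey point each. The 2 glycerol-3-phosphate transporter genes (red) lie at 2.30 and 2.16. The 3 inositol monophosphatase genes (purple) lie at 5.67, 2.31 and 1.59.

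The whole fragment numbers behind the FPKM values show how firmly each level was counted. Glyma.09G223700 had 9530, 9626 and 8412 fragments in the LP libraries, against 1868, 1951 and 1698 in the HP libraries. Its ratio of LP to HP, from the summed fragments relative to the library totals, was 4.94 with a 95% counting interval of 4.80 to 5.09. For Glyma.12G013200, with 14547 fragments at LP and 3201 at HP, the ratio was 4.50 (4.33 to 4.67). These intervals cover counting error only and not the spread between plants.

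Fragments of Glyma.07G266200 numbered 2314, 2279 and 2129 in the LP libraries, against 32, 58 and 36 in the HP libraries. Its fold thus rests on 126 HP fragments, and the ratio of 52.8 had a counting interval of 44.2 to 63.4. At HP, replicate 2 was the highest library at 2.12 FPKM (counting interval 1.61 to 2.74), against 1.15 FPKM (0.789 to 1.63) in replicate 1. The SD between the HP libraries was 0.530 FPKM, and counting error alone would give 0.233 FPKM at this depth. At LP the SD was 5.91 FPKM, with 1.68 FPKM from counting alone.

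The highest HP library and the lowest LP library were the same for each of the 3 genes. HP replicate 2 was the highest HP library and LP replicate 3 the lowest LP library in all 3. On the log2 scale, HP replicate 2 deviated from the HP mean by 0.11 for Glyma.09G223700, 0.14 for Glyma.12G013200 and 0.51 for Glyma.07G266200. Among the other 1038 genes called higher at LP, the median deviation of this library was 0.13, and among all genes tested it was 0.02. HP replicate 2 was not always the HP library furthest from the mean. Glyma.09G223700 deviated by -0.145 in HP replicate 3, and Glyma.12G013200 by -0.191 in HP replicate 1. For the other higher genes the median in HP replicate 3 was -0.165. LP replicate 3 deviated by -0.16, -0.15 and -0.11 for the 3 genes in that order. The median of the other higher genes was -0.09 in that library, and that of all genes was -0.03. For Glyma.07G266200, LP replicate 1 lay as far above the LP mean, at 0.11.

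The order of the levels was not the same in both treatments. At LP, Glyma.09G223700 was the highest at 159 ± 15.4 FPKM, and Glyma.07G266200 (79.7 ± 5.91 FPKM) and Glyma.12G013200 (78.6 ± 7.56 FPKM) lay within their spread of each other (SD, n = 3). At HP, Glyma.09G223700 was again above Glyma.12G013200, and Glyma.07G266200 was the lowest at 1.51 ± 0.530 FPKM, below both transporter genes in every library.

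The level of one transporter gene over the other was not used to choose them and could be tested. The FPKM of Glyma.09G223700 over that of Glyma.12G013200 was 2.15, 1.92 and 2.02 in the LP libraries, against 2.16, 1.81 and 1.61 in the HP libraries. Glyma.09G223700 was higher in 6 of 6 libraries, with a mean log2 ratio of 0.95 ± 0.16 (SD, n = 6; two-sided exact paired permutation test, p = 0.0312, the smallest value that 6 libraries allow). Without any 1 of the libraries the smallest possible p is 0.0625, which was reached each time. The log2 ratio was 1.02 ± 0.0798 at LP and 0.89 ± 0.211 at HP (SD, n = 3 each), a difference of 0.13 that is smaller than the spread at HP. The description shared by both genes means that they may share reads, since the handling of reads with more than 1 match was not stated.

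Inositol monophosphatase is described for 3 genes in the part of the supplementary gene table at hand. That table holds genes selected for differing between these same libraries. Neither the direction nor the adjusted p-values of Glyma.15G115500 and Glyma.09G011100 are therefore independent evidence. Glyma.15G115500, the most abundant at HP, was at 47.4, 42.6 and 43.2 FPKM in the LP libraries, against 16.3, 13.4 and 14.4 FPKM in the HP libraries. The increase was 1.59 in log2 (limma, adjusted p = 1.03e-04, standard error 0.11). Glyma.09G011100 was at 14.4, 13.6 and 13.1 FPKM at LP, against 2.83, 2.48 and 2.76 FPKM at HP, and rose by 2.31 (limma, adjusted p = 1.64e-05, standard error 0.11). Neither gene had overlapping values between the treatments (11.1% of all genes tested had every LP library above every HP library).

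The summed level of these genes is a description only, since all 3 were selected for differing between these libraries and any inositol monophosphatase gene that was not selected is left out of the sum. The 3 genes together had 138 ± 8.84 FPKM at LP and 18.9 ± 1.24 FPKM at HP (SD, n = 3 each), a 7.28-fold difference of means. Glyma.07G266200 made up 58.1%, 58.6% and 56.7% of that sum in the LP libraries, against 5.67%, 11.8% and 6.86% in the HP libraries. Glyma.15G115500 held 32.2% ± 0.910 at LP and 77.7% ± 3.00 at HP (SD, n = 3 each). The share of Glyma.09G011100 was 9.94% at LP and 14.2% at HP. Of the difference in the sum between the treatments, 65.8% lay in Glyma.07G266200, and without it the sum of the other 2 genes was 3.34-fold higher at LP. The 3 genes share a description, and reads shared among them cannot be told apart here.

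**Figure D3:**
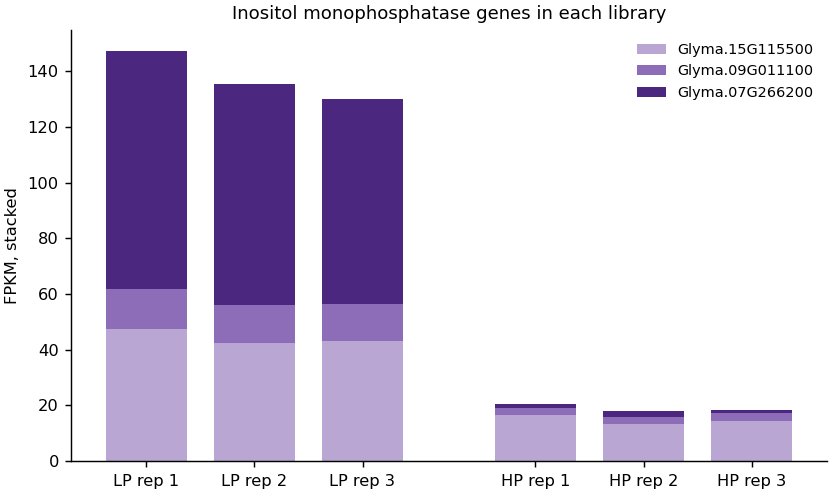
Stacked FPKM (vertical axis, from 0) of the 3 inositol monophosphatase genes in each LP library (left) and HP library (right). Glyma.07G266200 (dark, at the top) makes up 56.7% to 58.6% of each LP bar and 5.67% to 11.8% of each HP bar, while Glyma.15G115500 (light, at the base) makes up most of each HP bar.

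Other genes whose descriptions hold the words glycerol-3-phosphate or inositol were taken from the same table. The match is by word, so not all of them act on these compounds themselves. Besides the 3 genes above, 13 matched, of which 12 could be tested. In limma 11 were higher at LP and 1 was lower, with a median log2 fold change of 1.68. Over all genes tested 3.34% were higher and 4.39% lower, with a median of -0.18. The table was made from genes that differed on these libraries, so the count and the median are built into the list and nothing is read from their distance to all genes. For the same reason the adjusted p-values of the listed genes, given below, are not independent evidence.

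Acyltransferases, which attach fatty acids to glycerol-3-phosphate or to its first acylated product, were higher for 5 of 5 genes, a count that the selection of the table also fixes (3.34% of all genes tested were higher). The largest increases were in genes of the second of these steps. Glyma.15G034100, a 1-acyl-sn-glycerol-3-phosphate acyltransferase 3-like gene, had 4.31, 3.99 and 5.41 FPKM at LP, against 0.0994, 0.0757 and 0.0726 FPKM at HP (10 fragments in all at HP). In log2 the increase was 4.67 (limma, adjusted p = 2.33e-05, standard error 0.24). Its HP level lies under the added constant of 0.1, which therefore sets this value, and the increase was 2.36 with a constant of 1, 5.63 with 0.01 and 5.59 with voom on the fragments. Glyma.11G120600, an acyltransferase 5-like gene of the same step, had 4.86, 7.27 and 5.02 FPKM at LP, against 0.214, 0.217 and 0.386 FPKM at HP, and rose by 3.97 (limma, adjusted p = 9.48e-05, standard error 0.27), or by 2.38 with a constant of 1. Both genes reached the FPKM minimum in the LP libraries only, and were under it when any LP library was left out. Their adjusted p-values are therefore not independent evidence of an increase.

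The remaining acyltransferase genes are of the kind that makes precursors of suberin and cutin. Glyma.14G067200 (glycerol-3-phosphate acyltransferase 5-like) had 4.39, 1.45 and 2.73 FPKM at LP, against 0.489, 0.868 and 0.327 FPKM at HP, and rose by 2.11 in log2 (limma, adjusted p = 0.0132), or by 1.25 with a constant of 1. Glyma.07G146800 (glycerol-3-phosphate 2-O-acyltransferase 6-like) had 5.71, 2.102 and 2.96 FPKM at LP, against 1.02, 0.744 and 1.04 FPKM at HP, and rose by 1.73 (limma, adjusted p = 0.0112). Glyma.02G249300, also 5-like, had 2.88, 1.43 and 1.78 FPKM at LP, against 0.898, 0.705 and 1.01 FPKM at HP, an increase of 1.09 (limma, adjusted p = 0.0288). This last call was lost when LP replicate 1 (adjusted p = 0.0733 from limma) or LP replicate 3 (0.0557) was left out, and likewise for HP replicate 1 (0.0727) and HP replicate 2 (0.0714). With an added constant of 1 its log2 fold change was 0.67, under the 2-fold limit. All 3 genes were highest in LP replicate 1 and, within LP, lowest in LP replicate 2. The 2 genes of the 5-like description served as markers of suberised cell layers. In LP replicates 1 and 2 they deviated by a median of 0.64 and -0.61 on the log2 scale. Each of the 3 chosen genes deviated by at most 0.12 in those 2 libraries. In HP replicates 1, 2 and 3 the markers deviated by -0.02, 0.19 and -0.17. There Glyma.07G266200 deviated by -0.32, 0.51 and -0.19, Glyma.09G223700 by 0.03, 0.11 and -0.145, and Glyma.12G013200 by -0.191, 0.14 and 0.05. The part of suberised layers in these differences was not tested.

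On the inositol side, Glyma.10G255000, an inositol phosphate kinase gene, was at 8.97, 8.81 and 10.3 FPKM at LP, against 2.59, 3.54 and 2.81 FPKM at HP. It rose by 1.63 in log2 (limma, adjusted p = 3.79e-04, standard error 0.15). Glyma.07G126600 (inositol oxygenase 2-like), whose enzyme opens the ring of free inositol on the way to cell wall sugars, had 10.5, 12.9 and 10.9 FPKM at LP, against 2.65, 2.33 and 5.51 FPKM at HP. It rose by 1.78 (limma, adjusted p = 0.00670, standard error 0.30), and HP replicate 3 was the highest HP library, although still below every LP library.

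The genes of the list named next, of inositol phosphate and inositol lipid signalling, were at low levels in both treatments. The inositol 1,4,5-trisphosphate 5-phosphatase genes Glyma.03G081200 and Glyma.05G138100 (CVP2-like), whose enzymes remove a signalling phosphate, rose by 1.45 and 1.32 in log2 (limma, adjusted p = 0.00347 and 0.0161). With an added constant of 1 the values were 0.87 and 0.71, and neither gene was called. Their means were 2.15 ± 0.461 and 1.57 ± 0.532 FPKM at LP, and 0.710 ± 0.0242 and 0.557 ± 0.125 FPKM at HP (SD, n = 3 each). Glyma.04G010600, an SFH3-like gene for a protein that carries phosphatidylinositol between membranes, was the only gene of the list that fell. It had 0.314, 0.314 and 0.184 FPKM at LP, against 2.31, 0.891 and 1.04 FPKM at HP, and fell by 1.94 in log2 (limma, adjusted p = 0.0113, standard error 0.39). It was below the FPKM minimum without any 1 of the HP libraries, and with an added constant of 1 its value of -0.88 was not called. As it reached the minimum in the HP libraries only, its adjusted p is not independent evidence of a decrease. Glyma.13G196700, a phosphatidylinositol 4-phosphate 5-kinase 6-like gene, was under the minimum in all fits with one, at 0.297 ± 0.120 FPKM at LP and 0.0788 ± 0.0178 FPKM at HP (SD, n = 3 each).

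**Figure D4:**
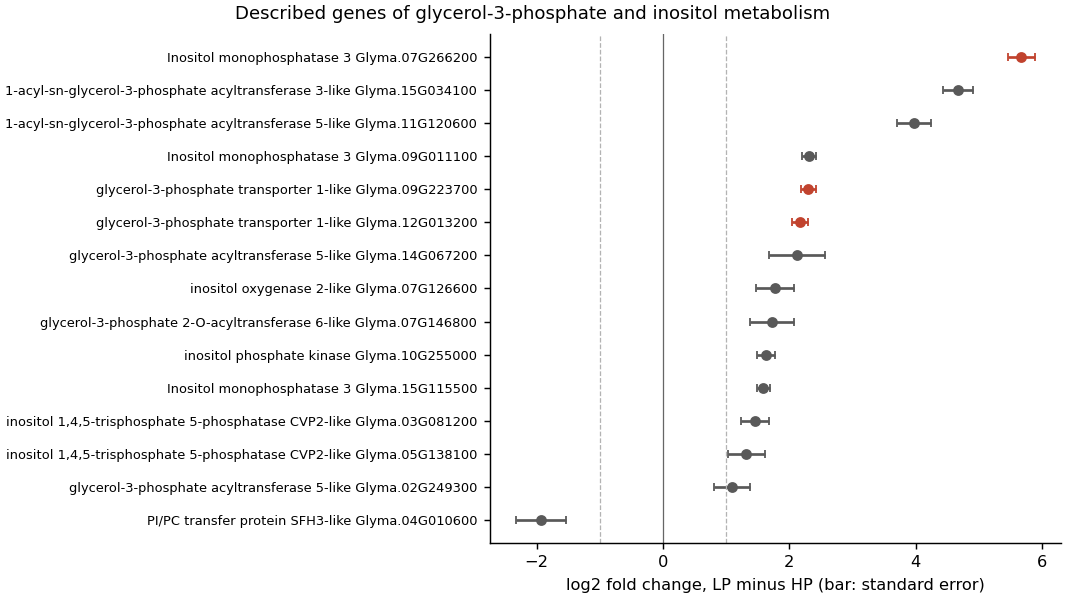
Log2 fold change of LP over HP (horizontal axis, bars are standard errors) of the 15 tested genes whose description holds glycerol-3-phosphate or inositol. The 3 chosen genes are red, the dashed lines mark a 2-fold difference, and 1 gene, Glyma.04G010600, lies below 0.

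The levels of the genes next to the 3 chosen genes are given for context. Of the 6 gene numbers directly before or after them, 4 were listed and tested, and none of the 4 passed the test in limma (adjusted p of 0.0750 to 0.593, and 1 had an unadjusted p under 0.05). Since 3.34% of all genes tested were called higher and 4.39% lower, a count of 0 among 4 genes does not set them apart. Glyma.07G266300 lies 845 bases from Glyma.07G266200, on the opposite strand. It had 7.18, 7.33 and 6.12 FPKM at LP, against 6.77, 6.32 and 4.97 FPKM at HP, a difference of 0.20 in log2 (limma, adjusted p = 0.359, standard error 0.15). Beside Glyma.12G013200, at a distance of 7866 bases, Glyma.12G013100 had 70.5, 60.3 and 77.3 FPKM at LP, against 42.8, 61.8 and 49.7 FPKM at HP, with overlapping treatments. The difference in log2 was 0.44 (limma, adjusted p = 0.0750, standard error 0.16), and this was the gene with an unadjusted p under 0.05. Glyma.12G013300, on the other side, and Glyma.09G223600, beside Glyma.09G223700, had log2 fold changes of 0.36 and 0.23. No listed gene overlapped the positions of the 3 chosen genes.

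Genes with the most similar profiles were ranked by the root mean square difference over the 6 libraries of the log2 values, after the HP mean of each gene was subtracted. The ranking covered 28141 other genes, all averaging 1 FPKM or more, and it is a description that uses the treatments themselves. The profile nearest to Glyma.09G223700 was that of Glyma.05G247900 (GmPAP9), a purple acid phosphatase gene, with a difference of 0.0409. It had 63.6, 61.5 and 56.2 FPKM at LP, against 12.4, 12.7 and 11.4 FPKM at HP. A further purple acid phosphatase gene, Glyma.08G056400 (GmPAP13), came next with 0.101. Glyma.18G002500, without a known role, followed with 0.109. They were followed by Glyma.05G136300, a peptide transporter PTR2-like gene, with 0.125 and by the inositol monophosphatase gene Glyma.09G011100 with 0.130. The partner transporter gene Glyma.12G013200 ranked 12 with 0.162.

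For Glyma.12G013200 the nearest profile was that of the phosphate transporter gene GmPT7 (Glyma.10G186500), with a difference of 0.120. GmPT7, which carries inorganic phosphate, was at 243, 305 and 278 FPKM at LP, against 55.5, 69.2 and 59.2 FPKM at HP. The next were Glyma.11G178400, a non-specific phospholipase C1-like gene whose enzyme cleaves phospholipids (0.147), and Glyma.13G118900, an ABC transporter B family gene (0.150). GmPAP9 (0.157) and Glyma.15G181800, of unknown role (0.160), completed the 5 nearest, and Glyma.09G223700 ranked 6.

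The profiles nearest to that of Glyma.07G266200 belonged to genes that were low at HP, between 0 and 6.31 FPKM in every HP library. The nearest was Glyma.15G085700, without a description, at 7.23, 6.90 and 7.01 FPKM at LP, against 1 fragment in the HP libraries together (difference 0.155). As its HP libraries are at or near 0, this difference and its rank are set by the added constant of 0.1. Next came the purple acid phosphatase gene GmPAP11 (Glyma.06G028200), which had 61.9, 60.6 and 54.2 FPKM at LP, against 1.34, 1.46 and 1.25 FPKM at HP (0.314). Glyma.20G192100, with 527 fragments at LP and none at HP, followed with 0.320, a value that the added constant sets in the same way. Glyma.17G046700 and Glyma.16G085600 came after it with 0.346 and 0.361, and the descriptions of both name no role. For Glyma.20G192100 no description was at hand. The transporter genes differed from this profile by 2.39 for Glyma.09G223700 and 2.49 for Glyma.12G013200, and ranked 211 and 248 of the 28141 other genes.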

How the data were processed

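Sequencing covered 3 LP and 3 HP libraries of nodule RNA. According to the methods, reads were cleaned of adaptors and poor bases, the authors aligned them with HISAT2 2.1.0 (index from Bowtie2 2.2.3, no more than 1 mismatch) to Williams82.a2.v1, and the authors estimated abundance with Cufflinks. The handling of reads with more than 1 match and of strand is not given in the sources used here. The deposited FPKM values, 1 set per library, list only genes above 0, so a missing gene was taken as 0.

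For the test 0.1 was added to each FPKM value before log2. A gene was tested if 3 or more libraries reached 0.5 FPKM (31181 genes). The fit was limma 3.58.1 under R 4.3.3, its eBayes step robust and with a trend (statmod 1.5.0), and two-sided p-values were adjusted by Benjamini-Hochberg over every gene tested. A call needed an adjusted p up to 0.05 and an absolute log2 fold change of 1 or more. Since each library pools 2 plants, p-values measure the spread between such pools. The fit was first checked on simulated data.

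Whole fragment numbers were recovered from the steps of the FPKM values alone (39712 of 39712 genes, tolerance 0.001 fragments) and used for exact 95% counting intervals. They sum to 99.7% of the implied totals. A gene's numbers are the smallest that give a whole gene length, so the true ones may be a multiple of them.

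The 3 genes and the lists were chosen with earlier results of these data known. Descriptions came from protein matches in the part of the supplementary gene table at hand (1764 genes), and the GmPAP and GmPT names from the paper. By protein accession, 1 of the 3 genes matched RefSeq. The rule for named genes took the 3 genes, in each list the 3 called genes of largest fold and the 3 genes of highest level, the genes numbered next to the 3, and the 5 nearest profiles of each. Other list members were named after their values were seen. A list of paralogs by protein sequence and a search for a promoter motif were planned and not run, since no sequences were used here.

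Alternatives were an added constant of 1 or 0.01, no minimum, a minimum of 1 FPKM, scaling by median of ratios or by quantiles, a plain eBayes step, voom on the fragment numbers, the replicate number as a block, and each library left out. Calculations beside limma ran in Python 3.11.15 (numpy 2.4.6, scipy 1.17.1, pandas 2.3.3), and plots in matplotlib 3.10.9.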

Additional observations from a re-analysis of the deposited data

How the results depend on the processing

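Under all alternatives Glyma.09G223700, Glyma.12G013200 and Glyma.07G266200 stayed higher at LP. Median-of-ratios scaling moved the log2 fold changes of Glyma.09G223700 and Glyma.12G013200 to 2.49 and 2.35, and an added constant of 1 moved that of Glyma.07G266200 to 5.02, since the constant weighs on its HP level. Leaving out a library gave 2.23 to 2.38 for Glyma.09G223700, 2.07 to 2.24 for Glyma.12G013200 and 5.52 to 5.93 for Glyma.07G266200.

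Over all genes, 1353 were called with an added constant of 1, of which 602 were lower, against 2411 and 1370 as reported. Lower calls numbered 676 with median-of-ratios and 806 with quantile scaling. The share of higher calls was 43.2% as reported, 67.5% with median-of-ratios scaling, 61.7% with quantile scaling and 55.5% with an added constant of 1. Of the 13 other described genes, 12 were tested with an added constant of 1, and 8 of these were higher. Without an HP library 10 or 11 of 11 tested genes were higher, and without an LP library 8 or 9 of 10. The other alternatives gave 11 or 12 higher genes, with 11 to 13 tested. Such counts are built in by the selection of the table (3.34% of all genes tested were higher as reported). The lower call of Glyma.04G010600 was not made (0 genes) with an added constant of 1, with a minimum of 1 FPKM or without any 1 of the HP libraries. It was made (1 gene) without any 1 of the LP libraries. The mean log2 ratio of the transporter genes was 0.92 to 1.01 without a library, where 5 libraries cannot reach p under 0.0625.

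With the replicate block, 1046 genes were higher and 1288 lower, and the calls of the other described genes did not change (11 higher, 1 lower). Deviations of libraries with the same number had correlations of 0.17, -0.02 and -0.15 across genes. Those of libraries with different numbers ran from -0.185 to 0.195. With 3 libraries per treatment these values cannot decide whether the numbers pair the libraries. Counts of paralogs were not run for want of protein sequences. Depth limits Glyma.07G266200 at HP, where the libraries held 32 to 58 fragments.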
